A study of Homo sapiens with 8 samples.

Results

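Antigen presentation by MHC class I was followed through 9 genes, HLA-B, HLA-C, HLA-E, HLA-F, B2M, TAP1, TAP2, ERAP1 and PSMB9, of the 20296 genes that could be named on the array. They were chosen by name and not by their values. For each gene the probe with the highest mean signal over the arrays was taken, and all 9 probes were well above background on all 8 arrays. MCF10A, a non-tumorigenic mammary epithelial cell line, was used in a p53+/+ form and in a p53-/- form that the labels also call p53-null. The cells received doxorubicin, also named adriamycin (ADR), which damages DNA. By the labels the dose was 0.5 µg/ml for 2 h, starting a day after plating, and the dose given in the methods of the study is higher. RNA was taken at 0 h from untreated cells and 12, 24 or 48 h after treatment, and each genotype and time has 1 array. How the p53-/- cells were made, and whether they are a single clone, is not given in the sources used here.

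Class I molecules show peptides from inside the cell to cytotoxic T cells, and natural killer cells read their loss. A heavy chain, such as HLA-B or HLA-C, pairs with the light chain beta-2-microglobulin (B2M). Its peptide is cut by the proteasome, of which PSMB9 is an interferon-inducible catalytic subunit, is carried into the endoplasmic reticulum by the transporter TAP1 with TAP2, and is trimmed there by the aminopeptidase ERAP1. Epithelial cells make these genes at rest and make more of them after interferon, through factors such as IRF1 and NLRC5.

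Values are log2 levels, the log2 processed signal of the spot minus that of the 75th percentile of the same array, so that 0 is the level of that percentile and 1 is a 2-fold step. The 75th percentile itself was 661 to 818 on the treated p53+/+ arrays and 1118 to 1199 on the treated p53-/- arrays. With 1 array per condition no change at a single time point has a replicate error. The technical SD of a change, taken from probes printed in 10 spots on each array, was 0.03 to 0.09 for these 9 genes, and covers differences between spots of an array only. Across the arrays limma was used, with the 3 treated time points of a genotype standing in for replicates, so its p-values set a difference against the movement over time and say nothing of other cultures. All 6 genes listed to check the p53 labels were higher in treated p53+/+ cells, among them CDKN1A, with a log2 level of 2.54 to 2.70 on the treated p53+/+ arrays and of −0.96 to −0.48 on the treated p53-/- arrays. Of 71 genes that differ by at least 2.0 on the log2 scale when treated p53+/+ arrays are set against the p53-/- ones, with a range of at most 0.7 inside each group, the array labelled p53+/+ 0 h had 2 nearer their treated p53+/+ level. Of the 9 class I genes 0 were among the 71. The 71 can be genes that ADR moves only in p53+/+ cells, and an untreated p53+/+ array would hold these at the p53-/- level. The count therefore cannot tell whether the label is right. Some changes measured from the array labelled p53+/+ 0 h are also given from the p53-/- 0 h array. On the p53+/+ 48 h array 0 of 10 spike-in probes were well above background, against 6 of 10 on the other arrays.

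After ADR the class I genes were higher in both genotypes. In each genotype all 9 exceeded their own 0 h array on every later array, as 13.0% of the 15811 genes tested did in both genotypes, 38.8% in p53+/+ and 33.1% in p53-/- cells, although B2M at 48 h in p53+/+ cells lay below 0 h with quantile normalization, with the median as the scale and without scaling, and TAP2 at 48 h did so without scaling. The median log2 change of the 9 genes in time order was 0.91, 1.49 and 1.17 for p53+/+ and 0.59, 1.004 and 1.09 for p53-/-. Averaged over the time points, the median change was 1.19 and 0.87, beside 0.06 and 0.03 for all genes tested. A rise of at least 2-fold at all 3 time points was seen for 2 of 9 genes in p53+/+ cells, where 9.53% of all genes rose so, and for 2 of 9 in p53-/- cells, where 3.21% did. They were TAP1 and PSMB9 in both genotypes, and 0.746% of all genes rose so in both. No gene of the 9 fell by this rule, by which 6.39% of all genes fell in p53+/+ cells and 2.04% in p53-/- cells.

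**Figure D1:**
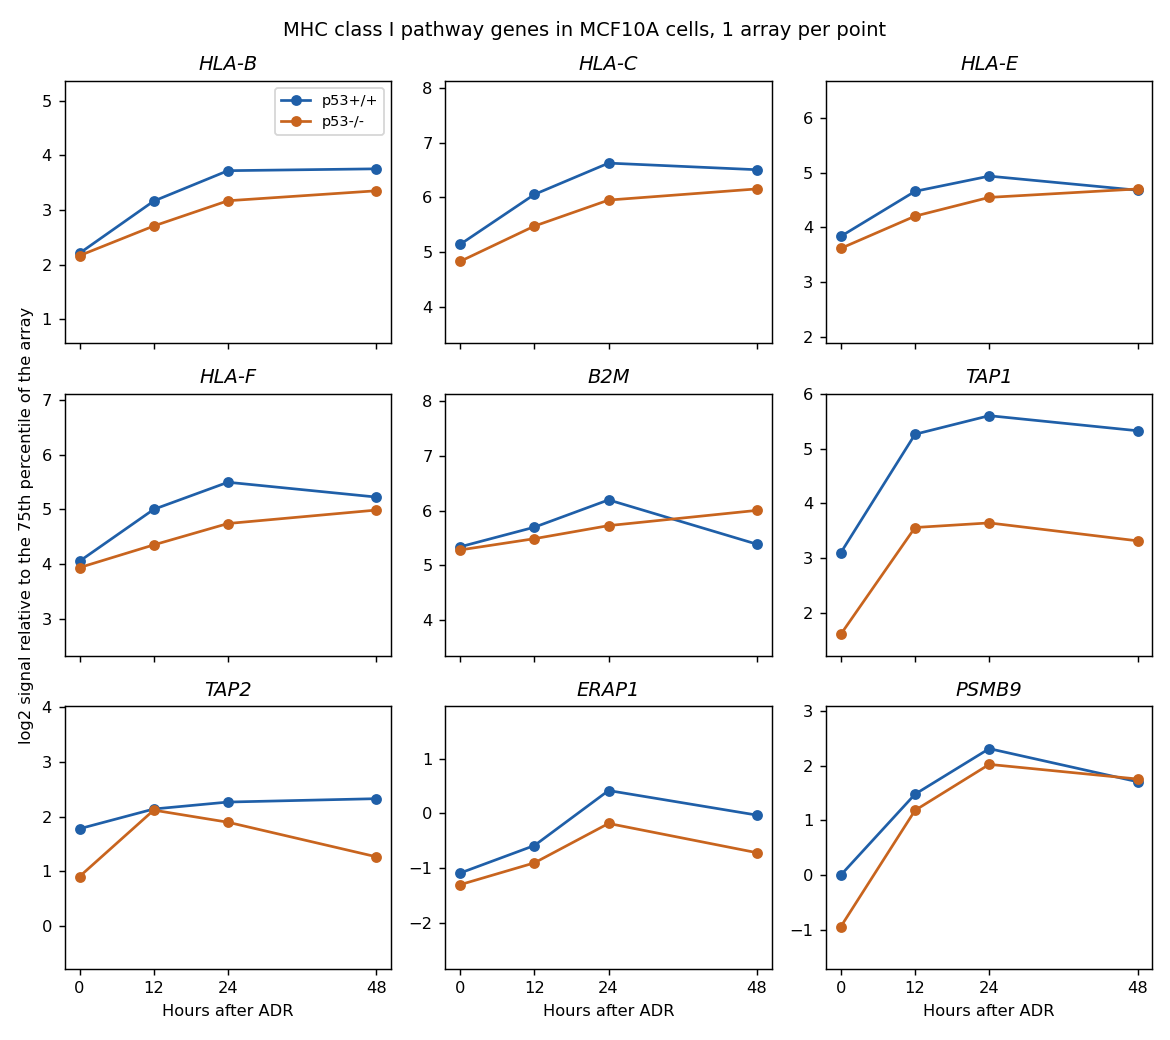
Log2 signal relative to the 75th percentile of the array (vertical axis) of the 9 genes against hours after ADR (horizontal axis), with p53+/+ in blue and p53-/- in orange and 1 array per point. Panels span the same number of log2 units, and TAP1 has the widest gap between its lines at every time, 1.49 at 0 h and 2.01 at 48 h.

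TAP1, the subunit of the peptide transporter that is encoded next to PSMB9, had the widest gap between genotypes of the 9 genes, and was 1 of the 2 that rose throughout. Its log2 level was 3.099 on the array labelled p53+/+ 0 h, then 5.26, 5.60 and 5.33 after ADR. In p53-/- cells it was 1.61 without treatment and 3.56, 3.64 and 3.31 after ADR. Every p53+/+ array after ADR thus lay above every p53-/- array, and all 3 treated p53-/- arrays lay above the array labelled p53+/+ 0 h. The rises were 4.49-, 5.68- and 4.69-fold in p53+/+ cells, against 3.86-, 4.10- and 3.26-fold in p53-/- cells. By limma the change over the 3 time points was 2.30 (standard error 0.27, adjusted p = 0.0068) in p53+/+ cells and 1.90 (standard error 0.27, adjusted p = 0.133) in p53-/- cells. It was the single gene of the 9 to pass the adjusted threshold for the p53+/+ change, as 5.22% of all genes did in that direction and 3.14% in the other, and 6 of the 9 had an unadjusted p under 0.05. Without the 24 h arrays the p53+/+ change of TAP1 was 2.20 with an adjusted p of 0.0928 from limma. Fits without a time point have fewer arrays and fewer residual degrees of freedom. In p53-/- cells 0 of the 9 passed the adjusted threshold of limma with all arrays, where 0.0126% of all genes did in each direction. Of the 9, 5 had an unadjusted p under 0.05, namely HLA-B, HLA-C, HLA-E, TAP1 and PSMB9. The share of all genes with an unadjusted p under 0.05 is not given here for either genotype. The unadjusted counts therefore do not show whether the 9 genes stand out.

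PSMB9, the inducible proteasome subunit, took the largest step of the 9 genes in p53-/- cells. Its log2 level was −0.000937 on the array labelled p53+/+ 0 h, then 1.48, 2.31 and 1.71 after ADR, and in p53-/- cells −0.94 at 0 h, then 1.18, 2.02 and 1.76 after ADR. The genotypes were apart at 0 h and overlapped after ADR, with the 48 h arrays at nearly the same level. The rises were 2.79-, 4.97- and 3.26-fold in p53+/+ cells, against 4.37-, 7.82- and 6.49-fold in p53-/- cells. By limma the change was 1.83 (standard error 0.45, adjusted p = 0.0615) and 2.60 (standard error 0.45, adjusted p = 0.178). From the p53-/- 0 h baseline the p53+/+ change of PSMB9 was 2.78 with an adjusted p of 0.0169 from limma.

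TAP1 and PSMB9 are read away from each other on chromosome 6, and in the RefSeq annotation of GRCh38.p14 their starts are 488 bases apart. The 250 bases before each start are shown because these are the 2 genes that rose at least 2-fold throughout in both genotypes. Capitals mark GAAA, repeated with any 2 bases between (the interferon-type motif, after the core of an interferon-stimulated response element), GGGA and TCCCC around any base (the NF-kB-type motif), TGACGC (an X2 box, the CREB-type element of the class I module) and CCAAT (the Y box read by NF-Y), each on either strand. TAP1 lies at chr6:32853705-32853954 on the minus strand and PSMB9 at chr6:32853942-32854191 on the plus strand, and the windows share 13 bases.
TAP1: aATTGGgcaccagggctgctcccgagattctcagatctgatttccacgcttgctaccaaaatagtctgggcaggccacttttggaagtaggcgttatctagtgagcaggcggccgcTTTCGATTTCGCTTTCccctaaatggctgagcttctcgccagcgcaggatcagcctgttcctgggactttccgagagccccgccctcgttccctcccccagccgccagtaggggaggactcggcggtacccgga
PSMB9: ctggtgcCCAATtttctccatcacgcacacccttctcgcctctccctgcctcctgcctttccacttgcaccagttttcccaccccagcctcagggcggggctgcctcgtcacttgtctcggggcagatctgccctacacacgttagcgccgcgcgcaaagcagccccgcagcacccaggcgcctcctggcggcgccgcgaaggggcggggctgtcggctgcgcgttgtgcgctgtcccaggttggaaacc
The TAP1 window holds the interferon-type motif on the minus strand at −134 to −125 and at −128 to −119 from its start, as a pair that overlaps. The CCAAT at its far end is the same copy that the PSMB9 window holds at −243 to −239. Over 35116 windows of this length, 3.02% hold the interferon-type motif, and of the 8 class I genes with a window HLA-F, B2M, TAP1 and TAP2 do. A match of letters is not a site of binding, and the p53 half-site, present in 5.57% of all windows, was found in 0 of the 8.

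TAP2, the other subunit of the transporter, rose less than TAP1 at each time in both genotypes, although over the 8 arrays their levels had an r of 0.872, the highest that TAP2 had with any of the other 8 genes. Its log2 level was 1.78 on the array labelled p53+/+ 0 h, then 2.14, 2.27 and 2.33 after ADR, and in p53-/- cells 0.91 at 0 h, then 2.12, 1.90 and 1.27 after ADR. In p53+/+ cells the arrays crept up with time, whereas in p53-/- cells the level was highest at 12 h and lower at each later time, so that every treated p53+/+ array was above every treated p53-/- array, narrowly so at 12 h. The folds were 1.29, 1.40 and 1.46 in p53+/+ cells, against 2.32, 1.99 and 1.29 in p53-/- cells. By limma neither change passed, with 0.47 (standard error 0.36, adjusted p = 0.503) in p53+/+ cells and 0.86 (standard error 0.36, adjusted p = 0.515) in p53-/- cells. From the p53-/- 0 h array the p53+/+ differences of TAP2 were 1.24, 1.36 and 1.42. The window of TAP2, at chr6:32838740-32838989 on the minus strand, is shown because it holds both an interferon-type and an X2 motif.
TAP2: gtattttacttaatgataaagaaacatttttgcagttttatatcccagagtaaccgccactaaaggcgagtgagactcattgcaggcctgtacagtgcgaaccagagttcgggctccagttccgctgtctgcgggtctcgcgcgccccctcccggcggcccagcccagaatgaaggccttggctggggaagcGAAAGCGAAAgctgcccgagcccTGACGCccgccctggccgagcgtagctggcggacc
The interferon-type motif stands at −58 to −49 and TGACGC at −35 to −30 from the TAP2 start.

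ERAP1, which trims peptides to the length that class I molecules hold, was highest at 24 h in both genotypes. Its log2 level was −1.09 on the array labelled p53+/+ 0 h, then −0.59, 0.42 and −0.03 after ADR, and −1.30 at 0 h, then −0.90, −0.18 and −0.72 after ADR in p53-/- cells. The treated arrays of the genotypes overlapped, with the p53+/+ array above the p53-/- array at each time. The folds were 1.42, 2.85 and 2.08 in p53+/+ cells, against 1.32, 2.17 and 1.5 in p53-/- cells. By limma the changes were 1.02 (standard error 0.46, adjusted p = 0.246) and 0.70 (standard error 0.46, adjusted p = 0.658).

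The heavy chains HLA-B and HLA-C, which present peptides to cytotoxic T cells, had courses alike in shape. HLA-B had a log2 level of 2.21 on the array labelled p53+/+ 0 h, then of 3.16, 3.72 and 3.75 after ADR, and of 2.17 at 0 h, then 2.71, 3.17 and 3.35 after ADR in p53-/- cells. HLA-C had a log2 level of 5.14 and then 6.05, 6.63 and 6.50 in p53+/+ cells, and of 4.83 and then 5.47, 5.95 and 6.15 in p53-/- cells. For both genes the treated arrays of the genotypes overlapped, since the p53-/- 48 h array was above the p53+/+ 12 h array. The folds of HLA-B were 1.94, 2.85 and 2.92 in p53+/+ cells, against 1.46, 2.01 and 2.28 in p53-/- cells. Those of HLA-C were 1.88, 2.80 and 2.58 in p53+/+ cells, against 1.56, 2.18 and 2.504 in p53-/- cells. Both genes were below 2-fold on the 12 h array in each genotype. Without the 12 h arrays 6 of the 9 genes passed 2-fold at the remaining times in p53+/+ cells and 4 in p53-/- cells. That rule asks for fewer time points and is easier to pass, and the share of all genes that pass it is not given here.

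HLA-E presents leader peptides of other class I chains to natural killer cells, and HLA-F is a nonclassical chain found at the surface of activated cells. HLA-E had a log2 level of 3.84 on the array labelled p53+/+ 0 h, then of 4.66, 4.94 and 4.68 after ADR, and of 3.62 at 0 h, then 4.21, 4.55 and 4.70 after ADR in p53-/- cells. HLA-F had a log2 level of 4.05 and then 4.999, 5.495 and 5.22 in p53+/+ cells, and of 3.93 and then 4.35, 4.74 and 4.99 in p53-/- cells. For HLA-E the genotypes overlapped after ADR and met at 48 h, whereas for HLA-F every treated p53+/+ array was above every treated p53-/- array though narrowly at p53+/+ 12 h against p53-/- 48 h. The folds of HLA-E were 1.77, 2.15 and 1.79 in p53+/+ cells, against 1.51, 1.91 and 2.12 in p53-/- cells. Those of HLA-F were 1.93, 2.72 and 2.26 in p53+/+ cells, against 1.33, 1.75 and 2.07 in p53-/- cells. In p53+/+ cells HLA-C, HLA-E and HLA-F were highest at 24 h, and in p53-/- cells all 4 heavy chains were highest at 48 h. By limma the adjusted p of the 4 heavy chains was 0.0889 to 0.125 for the p53+/+ change and 0.412 to 0.535 for the p53-/- change.

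The windows of HLA-B, HLA-C and HLA-F are shown because the chains had like courses and their windows can be set side by side. HLA-B lies at chr6:31357180-31357429 and HLA-C at chr6:31272093-31272342, both on the minus strand, and HLA-F at chr6:29723184-29723433 on the plus strand.
HLA-B: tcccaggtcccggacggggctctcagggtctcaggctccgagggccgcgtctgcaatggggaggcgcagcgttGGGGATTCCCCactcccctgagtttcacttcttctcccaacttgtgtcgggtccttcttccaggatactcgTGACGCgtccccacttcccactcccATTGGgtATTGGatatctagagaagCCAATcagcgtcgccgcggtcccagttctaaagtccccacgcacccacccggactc
HLA-C: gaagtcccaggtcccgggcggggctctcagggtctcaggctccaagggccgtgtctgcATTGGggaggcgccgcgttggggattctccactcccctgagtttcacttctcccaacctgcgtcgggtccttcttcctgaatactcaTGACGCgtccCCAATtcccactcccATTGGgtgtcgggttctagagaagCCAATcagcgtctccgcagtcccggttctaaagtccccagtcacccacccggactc
HLA-F: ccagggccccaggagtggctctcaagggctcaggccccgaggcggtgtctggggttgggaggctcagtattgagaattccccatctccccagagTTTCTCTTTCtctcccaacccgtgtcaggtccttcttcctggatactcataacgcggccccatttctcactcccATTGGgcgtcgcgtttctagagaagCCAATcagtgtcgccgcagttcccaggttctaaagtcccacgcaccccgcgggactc
A CCAAT pair, on the minus strand and then on the plus strand, begins at −81 and −56 in HLA-B, at −80 and −56 in HLA-C and at −82 and −57 in HLA-F. TGACGC begins at −106 in HLA-B and −105 in HLA-C and is held by 7.67% of all windows. With the exact letters searched, the NF-kB-type motif is in HLA-B and in 0.367% of all windows. Only exact matches were marked in the windows shown, so a window without capitals for a motif can still hold a near form of it. HLA-F holds the interferon-type motif at −156 to −147 on the minus strand. CCAAT is in 7 of the 8 class I windows and in 32.0% of all windows, and TTCNNNGAA, the letters of a STAT-type site, is in 0 of the 8 and in 6.57% of all.

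B2M, the light chain that all of these heavy chains share, had the smallest mean change of the 9 genes in each genotype. Its log2 level was 5.34 on the array labelled p53+/+ 0 h, then 5.70, 6.20 and 5.39 after ADR, and in p53-/- cells 5.28 at 0 h, then 5.49, 5.73 and 6.01 after ADR. In p53+/+ cells the level was back near its start at 48 h, and in p53-/- cells it was highest then, so the genotypes crossed between 24 and 48 h. The folds were 1.28, 1.81 and 1.03 in p53+/+ cells, against 1.15, 1.36 and 1.65 in p53-/- cells. B2M is printed in 10 spots, which spanned 0.11 to 0.22 on an array. By limma the changes were 0.42 (standard error 0.38, adjusted p = 0.564) and 0.46 (standard error 0.38, adjusted p = 0.720). The p53+/+ 48 h array is the array on which no spike-in probe was well above background, and without it the interaction of B2M was 0.15 in place of −0.04. The window of B2M, at chr15:44711267-44711516 on the plus strand, is shown because it holds a pair of overlapping interferon-type motifs, as TAP1 does, at −144 to −135 and −138 to −129.
B2M: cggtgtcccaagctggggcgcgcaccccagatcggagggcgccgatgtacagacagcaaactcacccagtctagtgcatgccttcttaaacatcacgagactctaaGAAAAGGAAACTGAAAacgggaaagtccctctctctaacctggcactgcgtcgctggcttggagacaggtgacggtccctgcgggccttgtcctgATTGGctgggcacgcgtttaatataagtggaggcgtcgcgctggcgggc

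**Figure D2:**
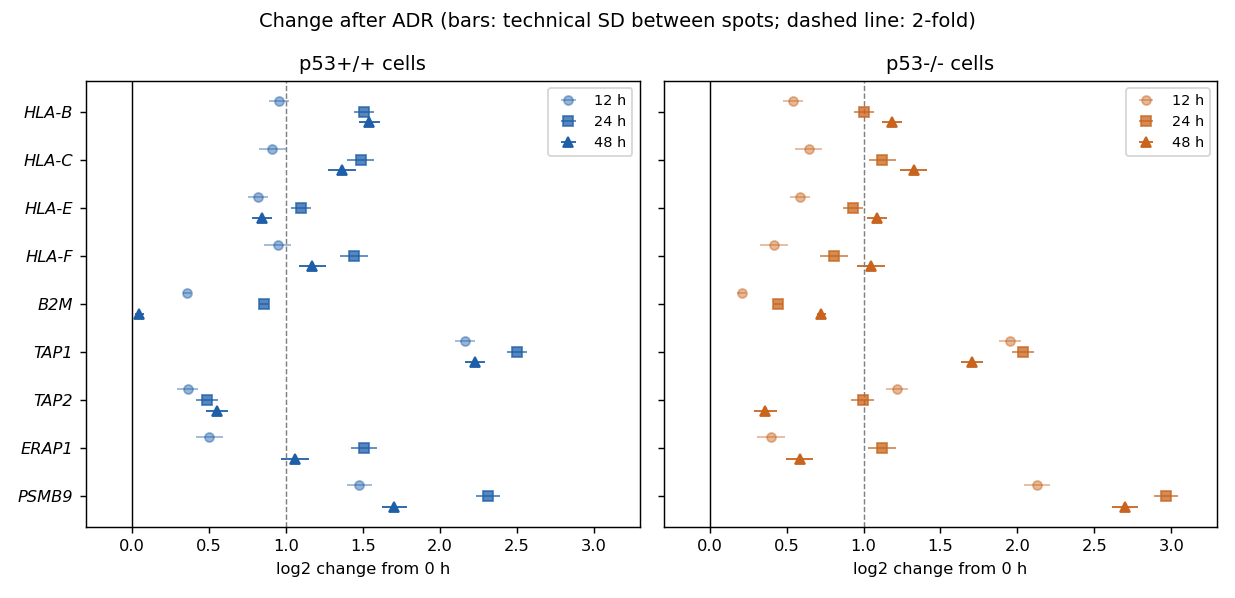
Log2 change from the 0 h array of the same genotype (horizontal axis) of the 9 genes at 12, 24 and 48 h (circle, square, triangle), with p53+/+ on the left and p53-/- on the right. Bars are the technical SD between spots, 0.03 to 0.09, and the dashed line is 2-fold, which all 3 points pass only for TAP1 and PSMB9 in each panel.

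Setting p53+/+ against p53-/- cells after ADR asks for a part of p53 and needs no 0 h array. TAP1 was higher in treated p53+/+ cells by 1.89 (standard error 0.19, adjusted p = 0.0023 from limma), or 3.72-fold, and by 3.27-, 3.90- and 4.04-fold at 12, 24 and 48 h. It was 1 of 9 genes past the threshold in that direction, as were 11.6% of all genes, and 0 of the 9 were lower, as were 9.34% of all genes. Without the 24 h arrays the difference of TAP1 was 1.86 with an adjusted p of 0.0727 from limma, and over 14 alternatives it lay between 1.30 and 1.99 and passed in 13 of them, with adjusted p from 0.000228 to 0.0727. The other 8 genes differed by 0.02 (B2M, standard error 0.27) to 0.55 (HLA-F, standard error 0.24), with adjusted p of 0.165 to 0.968 from limma, and all 8 differences were below 0 without scaling, where HLA-E was at −0.32 and B2M at −0.58. Every treated p53+/+ array was above every treated p53-/- array for HLA-F, TAP1 and TAP2, and for 24.6% of all genes. The median of all genes moved to −0.551 in this comparison without scaling, against 0.05 with it, and TAP1 was 1.26, 1.48 and 1.16 higher at the 3 times without scaling. Cell type markers moved with this difference. Of 9 markers of mammary basal epithelium 7 were higher in treated p53+/+ cells, with a summed log2 level of 8.92 to 9.11 against 7.79 to 7.96, and 8 of the 9 were well above background on all arrays, TP63 on 3. The summed level of 6 fibroblast markers was 2.11 to 2.39 against 5.70 to 6.07, nearly all of it DCN, with COL1A2 and COL3A1 not above background on any array. For 8 leukocyte markers it was 1.59 to 1.99 against 2.31 to 2.96, with CD2 and MS4A1 not above background on any array. For 4 endothelial markers it was −2.48 to −2.13 against −1.48 to −0.98. The part of these shifts in the TAP1 difference was not tested.

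The genotype difference of TAP1 was present before ADR. At 0 h TAP1 was 2.81-fold higher on the array labelled p53+/+ 0 h than on the p53-/- 0 h array, PSMB9 1.92-fold and TAP2 1.83-fold, and HLA-B, HLA-E, HLA-F, B2M, ERAP1 and HLA-C were 1.03- to 1.24-fold higher. All 9 were higher on that array, as were 52.9% of all genes, and TAP1 was the gene of the 9 at least 2-fold higher, as were 4.25% of all genes, while 0 of the 9 and 5.38% of all genes were at least 2-fold lower. These are differences between 2 arrays and have no test. The difference between the 2 responses, by the interaction term of limma, passed for 0 of the 9 genes, where it passed for 1.12% of all genes in the higher and 0.759% in the lower direction. An unadjusted p under 0.05 was seen for 0 of the 9, and the share of all genes at that threshold is not given here. The interaction was 0.40 for TAP1 (standard error 0.39, adjusted p = 0.651) and −0.77 for PSMB9 (standard error 0.63, adjusted p = 0.589). When both genotypes were measured from the p53-/- 0 h array, the rule of 2-fold at all 3 times was passed in p53+/+ cells by 6 of the 9 genes, HLA-C, HLA-E, HLA-F, TAP1, TAP2 and PSMB9, and by 9.55% of all genes. TAP1 was then 3.66, 3.996 and 3.72 above that baseline.

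**Figure D3:**
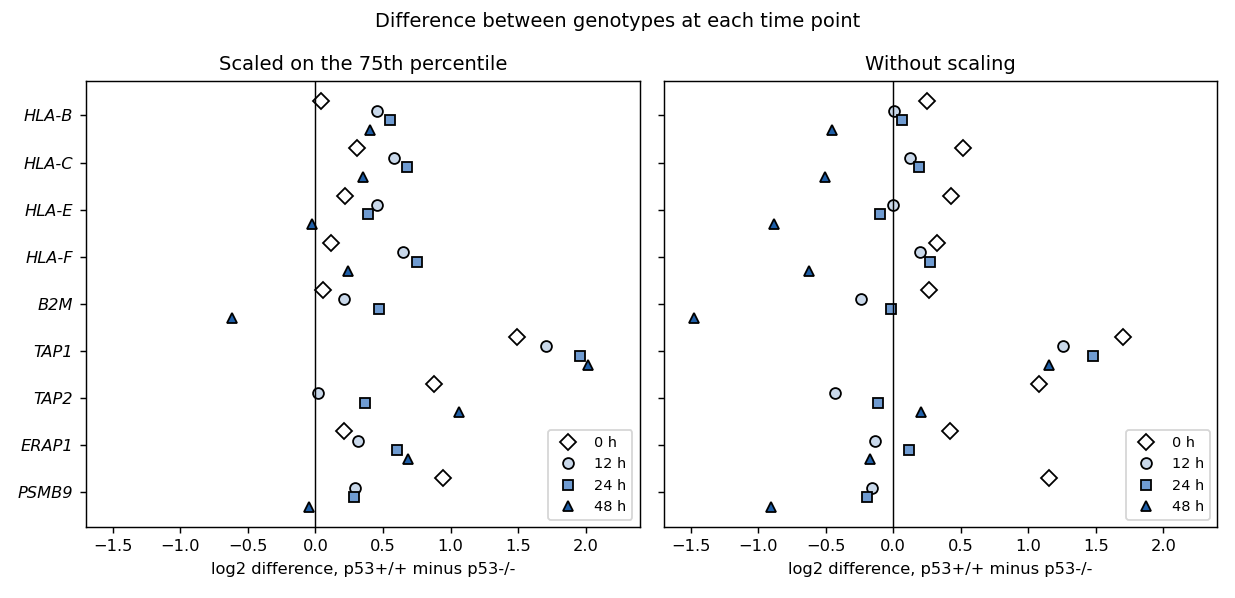
Log2 difference of p53+/+ minus p53-/- (horizontal axis) for the 9 genes at 0, 12, 24 and 48 h (diamond, circle, square, triangle), scaled on the 75th percentile on the left and without scaling on the right. TAP1 is to the right of 0 at every time under both, from 1.16 to 2.01, and at 48 h 3 of the other 8 genes are below 0 with scaling and 7 without it.

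HLA-B, HLA-F, TAP2 and ERAP1 have a second probe. For a second HLA-B probe of the same transcript the mean log2 change was 1.77 in p53+/+ and 1.23 in p53-/- cells, against 1.34 and 0.91 for the probe used, and it gave a genotype difference of 0.92 after ADR (adjusted p = 0.0818 from limma). For a second HLA-F probe, of another transcript, the mean changes were 0.92 and 0.56, against 1.19 and 0.76. Both second probes kept the direction of the first, and the HLA-B genotype difference was wider with the second probe, at 0.92 against 0.47. The second probes of TAP2 and ERAP1 were not well above background on any array. The 2 spots of the HLA-B probe used lay up to 0.61 apart on an array, and the wide gaps were on the p53+/+ arrays. At 12, 24 and 48 h the spots read 3.44, 3.98 and 4.06 against 2.88, 3.46 and 3.45 in p53+/+ cells. In p53-/- cells they read 2.70, 3.15 and 3.38 against 2.72, 3.19 and 3.32. The size of the HLA-B genotype difference, and the overlap of the treated genotypes, thus depend on the spot. Class I heavy chains are close in sequence, and how far their probes read each other could not be checked, since the files hold no probe sequences.

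Other class I chains were read from a list of 11 genes, of which 8 could be tested, being well above background on 1 array or more. The mean log2 change of HLA-G was 1.31 in p53+/+ and 0.94 in p53-/- cells, and that of HLA-J, a pseudogene, 1.60 and 1.21, with neither past the adjusted threshold of limma. MR1, which presents vitamin metabolites to mucosal T cells, was the gene of this list to differ between treated genotypes. Its log2 level was −0.85 on the array labelled p53+/+ 0 h, then 1.65, 1.69 and 1.13 after ADR, and −0.76, −0.85, −0.79 and −0.49 at the 4 times in p53-/- cells. It was 2.20 higher in treated p53+/+ cells (adjusted p = 0.0024 from limma) and 1.60 higher without scaling (adjusted p = 0.0112). MICA and MICB, ligands of the killer cell receptor NKG2D, differed by 0.98 and −0.27 with adjusted p of 0.123 and 0.517 from limma.

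The genes that fold and load class I molecules are 9, all above background on all arrays. After ADR, TAPBPL, a peptide editor, was higher in treated p53+/+ cells by 1.32 (adjusted p = 0.0494 from limma) and the chaperone CALR by 0.85 (adjusted p = 0.0182), and TXNDC5, a disulfide isomerase, differed by −1.34 (adjusted p = 0.0067). TXNDC5 held in 13 of 14 alternatives, CALR in 9 and TAPBPL in 7, and the last 2 missed the threshold without scaling. Tapasin (TAPBP), which joins class I to the transporter, had a mean log2 change of 0.57 in p53+/+ and 0.53 in p53-/- cells and did not pass.

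Among 8 aminopeptidases, ERAP2, the partner of ERAP1, was higher in treated p53+/+ cells by 1.27 (adjusted p = 0.0180 from limma) and LNPEP, a related trimming enzyme of endosomes, by 1.38 (adjusted p = 0.0194), and 0 were lower. Each held in 10 of 14 alternatives and neither held without scaling. ERAP2 was already higher at 0 h, with log2 levels of −1.49 and −2.59.

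Of 6 genes of the immunoproteasome and of its activator PA28, 0 passed in any of the 4 contrasts. The other inducible subunits PSMB8 and PSMB10 had mean log2 changes of 0.92 and 0.77 in p53+/+ and of 0.61 and 0.70 in p53-/- cells, and the activator subunits PSME1 and PSME2 of 0.67 and 0.65 in p53+/+ and of 0.11 and 0.54 in p53-/- cells. PSMB5, PSMB6 and PSMB7, the catalytic subunits that the inducible ones replace, had mean changes of −0.05, 0.19 and 0.11 in p53+/+ and of −0.04, 0.15 and 0.27 in p53-/- cells. The 3 inducible subunits thus had higher changes than the 3 constitutive ones in both genotypes.

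Of 20 transcription factors of class I genes 18 could be tested. After ADR STAT2 was higher in treated p53+/+ cells by 1.12 (adjusted p = 0.0370 from limma) and STAT3 by 0.93 (adjusted p = 0.0227), and the CCAAT-binding subunits NFYA and NFYB differed by −1.45 (adjusted p = 0.0048) and −1.03 (adjusted p = 0.0258). STAT2 held in 8 of 14 alternatives, STAT3 in 9, NFYA in 13 and NFYB in 11, and without scaling STAT2 and STAT3 missed the threshold. IRF1, which is known to act on the shared promoter of TAP1 and PSMB9, was at 0.74, 0.22, 0.70 and 0.35 in p53+/+ cells and at −1.90, 0.21, 0.16 and 0.24 in p53-/- cells. IRF1 was thus low on the p53-/- 0 h array alone, as was RELB, a subunit of NF-kB, at 2.50 there and 3.89 to 4.46 on the other 7 arrays. The interaction of IRF1 was −2.42 with an adjusted p of 0.0415 from limma. NLRC5, the class I transactivator, was dim on all arrays, from −3.73 to −2.83, and was lower after ADR on each array than at 0 h, by 0.71 on average in p53+/+ and 0.41 in p53-/- cells, without passing. CIITA, its class II counterpart, was not above background on any array.

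**Figure D4:**
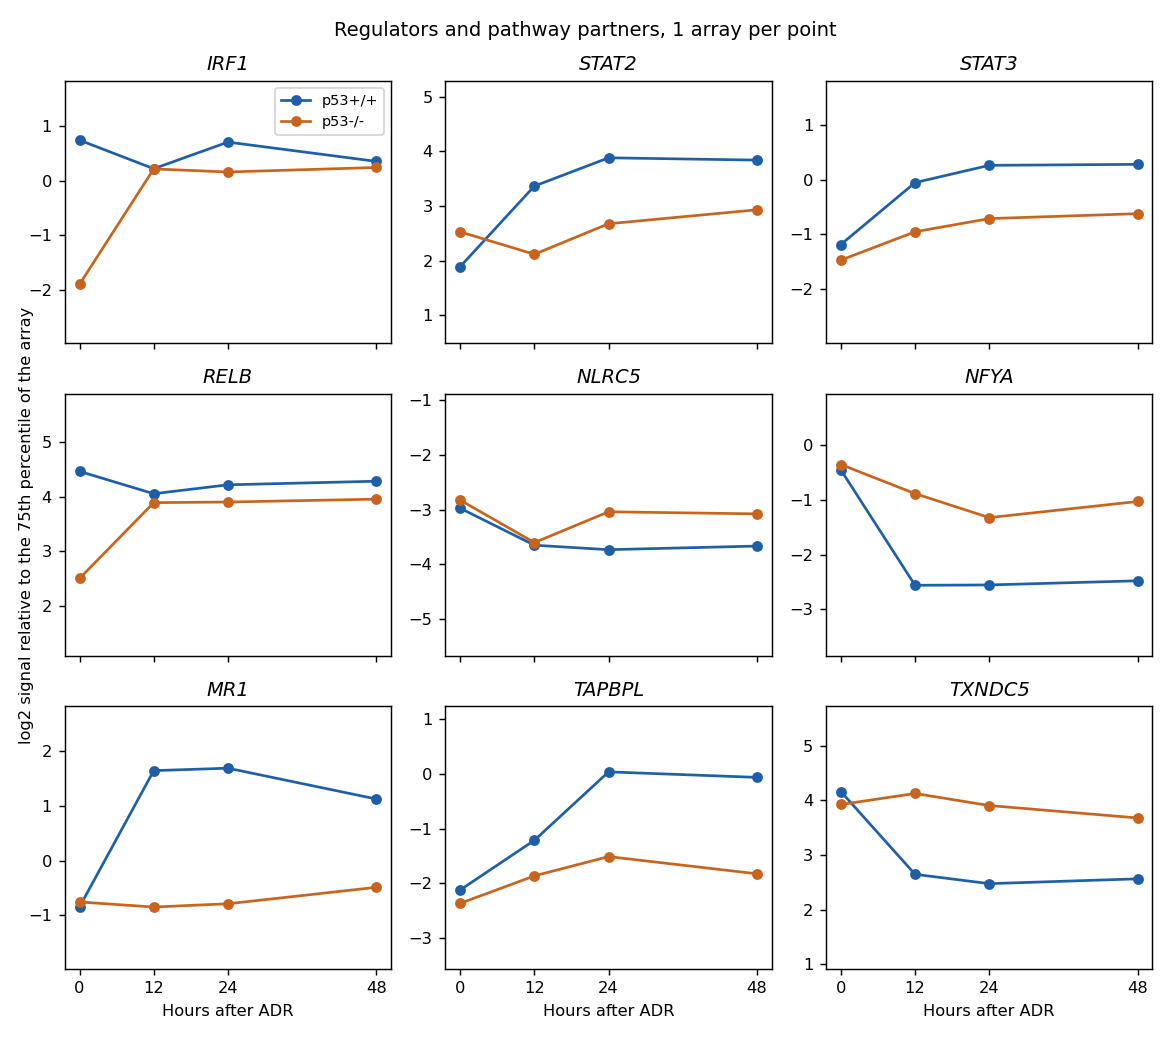
Log2 signal relative to the 75th percentile of the array (vertical axis) of 9 regulators and partners of the class I genes against hours after ADR (horizontal axis), 1 array per point, p53+/+ in blue and p53-/- in orange. IRF1 and RELB are low only on the p53-/- 0 h array, whereas NFYA, MR1 and TXNDC5 part at 12 h and stay apart.

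Of 17 interferon genes, receptors and receptor kinases 12 could be tested. IFNB1, IFNA1, IFNG, IFNL3 and IFNK could not be, and IFNB1 and IFNG were not well above background on any array. IL10RB, a receptor chain for interferon lambda and interleukin 10, was higher in treated p53+/+ cells by 0.99 (adjusted p = 0.0388 from limma) and IFNLR1, the other chain of the lambda receptor, differed by −2.54 (adjusted p = 0.0031). IL10RB held in 8 of 14 alternatives and was 0.39 (adjusted p = 0.346 from limma) without scaling. IFNLR1 was dim, being well above background on 6 of the 8 arrays, with log2 levels of −5.16 to −4.27 on the treated p53+/+ arrays. Its difference held in 12 of 13 alternatives, and its size lay between −3.14 and −1.11. Of 12 MHC class II genes 7 could be tested and HLA-DOB, a modulator of class II loading that lies beside TAP2, was higher in treated p53+/+ cells by 1.70 (adjusted p = 0.0117). HLA-DRA and CD74, the class II chain and invariant chain that mark professional presenting cells, were not above background on any array. Of all 86 genes on these lists 71 were tested, 9 were higher and 4 lower in treated p53+/+ cells, where 11.6% of all genes were higher and 9.34% lower. Without the 24 h arrays 0 passed in either direction. That fit has fewer arrays and fewer residual degrees of freedom, and the share of all genes that pass in it is not given here.

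The profile of each gene over the 8 arrays was set against the other 11827 genes above background on all arrays. These are correlations over 8 arrays that share the time course and are given as a description. Among the genes most like HLA-B were HLA-G and HLA-C (Pearson r of 0.991 and 0.990), among those most like HLA-C were HLA-G and HLA-J (0.997 and 0.997), and HLA-F was most like HLA-J, HLA-G and HLA-C (0.993, 0.991 and 0.990). For HLA-E the nearest were P4HB, MIB2 and STAT4 (0.988, 0.984 and 0.983), and for B2M CTSV, ENC1 and POPDC2 (0.957, 0.956 and 0.949). TAP1 was nearest to SPTLC1, KITLG and PARP14 (0.992, 0.988 and 0.985), TAP2 to C2orf72, MTCL1 and ATPAF2 (0.970, 0.954 and 0.950), ERAP1 to KREMEN2, HS6ST1 and DHX58 (0.989, 0.982 and 0.979) and PSMB9 to HAP1, KCTD12 and EDN2 (0.977, 0.976 and 0.974). HLA-B, HLA-C and HLA-F thus ran close to other class I chains, and the peptide supply genes each to genes outside the lists. Among the 36 pairs of the 9 genes r ran from 0.204, for B2M and TAP2, to 0.990, with a median of 0.844.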

How the data were processed

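MCF10A p53+/+ and p53-/- cells were profiled on 8 Agilent SurePrint G3 Human GE arrays in a single colour, and arrays were grouped by the sample labels. The authors deposited the scanner output of Agilent Feature Extraction 10.7.3.1 for each array, with a processed signal per spot, an intensity that this software had corrected for background. Its header names the human build hg19. A deposited series table repeats these intensities, with 503808 of 503808 values equal within 0.001. Normalization between arrays is not given in the sources used here.

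Control spots and spots flagged as uneven or outlying were left out. Log2 intensities were set against each array's 75th percentile and averaged per probe, which left 42391 probes. Of these 27227 were named, for 20296 genes, by transcript accession through a RefSeq table of GRCh38.p14, and the promoter sequences are those of RefSeq on that build. Since it is not hg19, genes are given no coordinates on the arrays' build. The 28947 probes well above background on 1 array or more entered limma 3.58.1 in R 4.3.3 (lmFit, eBayes), with the means of 4 groups, genotype by treated or not, and 4 residual degrees of freedom. The Benjamini-Hochberg threshold was 0.05 over all probes, and 15811 genes were counted. A rise or fall was 2-fold at all 3 time points. The small number of arrays limits the precision of the values. The fit was tested on simulated data.

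The genes and lists were chosen with earlier results of these data known. Named are all 9 genes, the listed genes that passed in the treated contrast or stood highest or lowest in a list, and the 3 genes most like each of the 9. Other listed genes, among them IRF1, RELB and NLRC5, were named after their values were seen. Values of some listed genes are not reported here. Alternatives were other scalings and background correction (normexp, offset 50), probe choices, filters, baselines, fold sizes, times left out, time as a block, a signal floor, and, added after the data were seen, the p53+/+ 48 h array left out. Python 3.11.15, numpy 2.4.6, pandas 2.3.3 and matplotlib 3.10.9 were used.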

Additional observations from a re-analysis of the deposited data

Results flagged for a closer look

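For 4 genes of the lists the response to ADR differed between the genotypes by the interaction term of limma, measured from the array labelled p53+/+ 0 h and the p53-/- 0 h array. IRF1, a regulator of class I genes, had an interaction of −2.42 on the log2 scale (adjusted p = 0.0415), being lowest on the p53-/- 0 h array. The genes used to check the p53 labels gave 3.48 for MDM2 (adjusted p = 0.0316), 4.55 for SESN1 (adjusted p = 0.0141) and 6.29 for TP53INP1 (adjusted p = 0.0164), each higher at 3 of 3 treated time points in p53+/+ cells.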

How the results depend on the processing

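Of the alternatives, no scaling moved most values. The median log2 change of the 9 genes was then 0.77 in p53+/+ and 1.26 in p53-/- cells, and the treated p53+/+ minus treated p53-/- difference turned to −0.13 (HLA-B), −0.062 (HLA-C), −0.32 (HLA-E), −0.051 (HLA-F), −0.58 (B2M), −0.11 (TAP2), −0.063 (ERAP1) and −0.42 (PSMB9). The interaction turned to −0.38 (HLA-B), −0.58 (HLA-C), −0.75 (HLA-E), −0.37 (HLA-F), −0.40 (TAP1) and −0.48 (ERAP1). The difference of B2M was also below 0 with quantile normalization (−0.27), the median as the scale (−0.11) and normexp (−0.044), and between −0.20 and 0.34 without a time point. Interactions turned sign with quantile normalization (HLA-C, −0.048), the median as the scale (HLA-E, −0.10), without a time point (HLA-E, −0.037 to 0.20, and B2M, −0.26 to 0.28) and without the p53+/+ 48 h array (B2M, 0.15). Measured from the p53-/- 0 h array, 6 genes rose 2-fold in p53+/+ cells, and the interaction has no value there, since a shared baseline leaves only the treated contrast. At 1.5-fold 6 genes rose in p53+/+ and 4 in p53-/- cells, and at 3-fold 1 rose in p53+/+ cells. Leaving out a time point gave 2 to 6 in p53+/+ and 2 to 4 in p53-/- cells, and 0 to 1 gene higher in treated p53+/+ cells. Shares of all genes under these other rules are not given here, and fits without a time point have fewer residual degrees of freedom. The 9 other listed genes higher in treated p53+/+ cells became 2 without scaling, 17 with normexp, 17 with no filter on dim probes and 0 to 3 without a time point, and the 4 lower ones 18 without scaling and 0 to 3 without a time point. The TAP1 change in p53-/- cells passed under 3 of 14 alternatives. The cause of these shifts was not tested. The labels give no replicate numbers. Time as a block, which pairs the treated arrays of the genotypes, left 2 and 2 genes that rose, 1 higher in treated p53+/+ cells and 0 with an interaction, and with it the p53+/+ change of PSMB9 passed (1.83, adjusted p = 0.0331 from limma).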
